A study of Mus musculus with 59 samples.

Results

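The midbrain-hindbrain organiser genes Otx2, Gbx2, En1, En2, Fgf8, Wnt1 and Pax2 were followed through the deposited lists of 3 histone marks. Each gene was represented by 1 window of build mm9, and every H3K27me3 island or acetylation or H3K4me3 peak that overlapped a window was taken as a member. The windows were chosen by H3K27me3 reads at Otx2 in forebrain against hindbrain cultures and by the known roles of the genes, with these data in view, so that contrast, and every fold at Otx2 that involves those K27M cultures, is described without a test. Of 408766 H3K27me3 islands in all lists, 282 overlapped the 7 windows, as did 118 of 539823 H3K27ac peaks and 124 of 158965 H3K4me3 peaks. The windows lie at chromosome 14, 49258000 to 49306000 (Otx2), chromosome 1, 91805000 to 91845000 (Gbx2), chromosome 1, 122480000 to 122525000 (En1) and chromosome 5, 28470000 to 28520000 (En2). The others lie at chromosome 19, 45800000 to 45822000 (Fgf8), chromosome 15, 98605000 to 98640000 (Wnt1) and chromosome 19, 44815000 to 44925000 (Pax2). Each window held an H3K27me3 island in every one of the 20 libraries profiled for that mark. Exons, introns and untranslated regions inside the windows are not stated, since no annotation of build mm9 was used.

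Mouse cells with 1 H3f3a allele that encodes histone H3.3 with lysine 27 replaced by methionine (K27M) were set against cells whose tagged allele encodes the normal histone (WT). The H3K27me3 libraries came from brainstem tumours and from neurospheres, clusters of neural precursors grown in suspension. The neurospheres dated from e15.5 and carried Nestin-cre, which acts in neural precursors, with H3f3aLSL-K27M-Tag/+ in forebrain (3 libraries) and hindbrain (3 libraries) and H3f3aLSL-WT-Tag/+ in hindbrain (3 libraries). No WT forebrain library was analysed here. The tumours carried the tamoxifen-inducible Nestin-creERT2, the conditional activated receptor LSL-PDGFRαV544ins and Trp53flox/flox, and joined these either to H3f3aLSL-K27M-Tag/+ (6 tumours) or to H3f3aLSL-WT-Tag/+ (5 tumours). The PDGFRα and Trp53 alleles were thus shared by both tumour genotypes, while the neurospheres had neither. H3K27ac was profiled in the same 11 tumours and H3K4me3 in 2 K27M tumours (BT-2 and BT-6) and 3 WT tumours (BT-7, BT-9 and BT-10). By label 4 K27M tumours were male and 2 female, whereas 1 WT tumour was male and 4 were female. All neurosphere libraries were female except the hindbrain WT library NSH-F.

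The organiser at the boundary between midbrain and hindbrain forms where the homeodomain factor Otx2, active in forebrain and midbrain, meets the homeodomain factor Gbx2, active in anterior hindbrain. The boundary cells secrete Fgf8 and Wnt1, and the transcription factors Pax2, En1 and En2 maintain that signalling on both sides. H3K27me3 is laid down by Polycomb repressive complex 2 over developmental genes that are kept off, H3K27ac lies on enhancers and promoters in use, and H3K4me3 on promoter starts. Developmental genes with promoters rich in CG dinucleotides are common targets of Polycomb.

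Promoters of 5 of the 7 genes were found in RefSeq's table for build GRCm38.p6, in which Otx2 has 4 starts and Pax2 3. The 250 bases before start 1 are shown for the pair of opposing homeodomain factors and for 1 member of each of the other roles, En1 as the factor and Wnt1 as the secreted signal, with CG dinucleotides in capitals. The positions are chr14:48667645-48667894 on the minus strand for Otx2, chr1:89931177-89931426 on the minus strand for Gbx2, chr1:120602237-120602486 on the plus strand for En1 and chr15:98789607-98789856 on the plus strand for Wnt1.
Otx2: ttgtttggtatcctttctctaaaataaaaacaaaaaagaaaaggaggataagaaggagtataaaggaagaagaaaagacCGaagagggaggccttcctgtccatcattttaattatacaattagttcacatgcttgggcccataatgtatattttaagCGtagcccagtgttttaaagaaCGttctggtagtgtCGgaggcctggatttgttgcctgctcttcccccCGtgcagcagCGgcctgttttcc
Gbx2: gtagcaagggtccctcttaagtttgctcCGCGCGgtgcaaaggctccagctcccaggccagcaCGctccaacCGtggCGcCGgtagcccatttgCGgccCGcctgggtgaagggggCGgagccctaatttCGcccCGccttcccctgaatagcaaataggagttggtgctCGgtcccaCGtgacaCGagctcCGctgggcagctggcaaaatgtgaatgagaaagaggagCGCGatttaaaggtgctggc
En1: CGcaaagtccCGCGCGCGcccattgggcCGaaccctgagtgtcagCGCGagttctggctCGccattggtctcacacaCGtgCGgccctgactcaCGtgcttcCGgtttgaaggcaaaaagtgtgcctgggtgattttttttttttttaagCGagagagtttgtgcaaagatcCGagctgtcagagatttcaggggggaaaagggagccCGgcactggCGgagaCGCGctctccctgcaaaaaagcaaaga
Wnt1: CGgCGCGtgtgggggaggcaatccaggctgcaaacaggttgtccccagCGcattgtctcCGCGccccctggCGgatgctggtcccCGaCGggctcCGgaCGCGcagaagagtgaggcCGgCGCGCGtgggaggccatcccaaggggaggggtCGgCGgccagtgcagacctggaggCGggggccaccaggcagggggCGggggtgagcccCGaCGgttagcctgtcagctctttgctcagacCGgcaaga
The printed Otx2 stretch held 6 CG dinucleotides and the Gbx2, En1 and Wnt1 stretches 18, 19 and 23. Over the 32851 promoters of the table the median was 6, and 49.6% had fewer than Otx2 while 78.3%, 80.3% and 86.7% had fewer than Gbx2, En1 and Wnt1. The other 3 Otx2 starts held 8, 14 and 9, and the 3 Pax2 starts 5, 20 and 25. TAATCC, a core bound by Otx2-type homeodomains, was searched on both strands and was present in 6.3% of all promoters and in 1 of these 10, that of Otx2 start 3. TAATTA, a core bound by Engrailed-type homeodomains, was present in 4.8% of all promoters and at Otx2 starts 1 and 3. These matches describe letters only, and positions of this build were not joined to the mm9 windows.

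Island reads summed to between 3208588 and 16323822 in a library, and no total of sequenced reads was used. Values per library are CPM, island reads scaled with TMM factors from the regions with an island in all 20 libraries. They measure a region relative to the others and not the absolute amount of the mark, and fold changes come from separate fits of each comparison. Islands covered 82.4 to 83.5 Mb in forebrain K27M, 81.0 to 97.7 Mb in hindbrain K27M and 192.2 to 217.2 Mb in hindbrain WT neurospheres, and 121.1 to 346.8 Mb in tumours. The 7 windows held 1.49% to 1.66% of island reads in forebrain K27M, 0.993% to 1.27% in hindbrain K27M and 0.439% to 0.635% in hindbrain WT libraries, and 0.227% to 1.02% in tumours. These are mixed cells, and fewer cells with the mark and less mark per cell cannot be told apart.

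**Figure D1:**
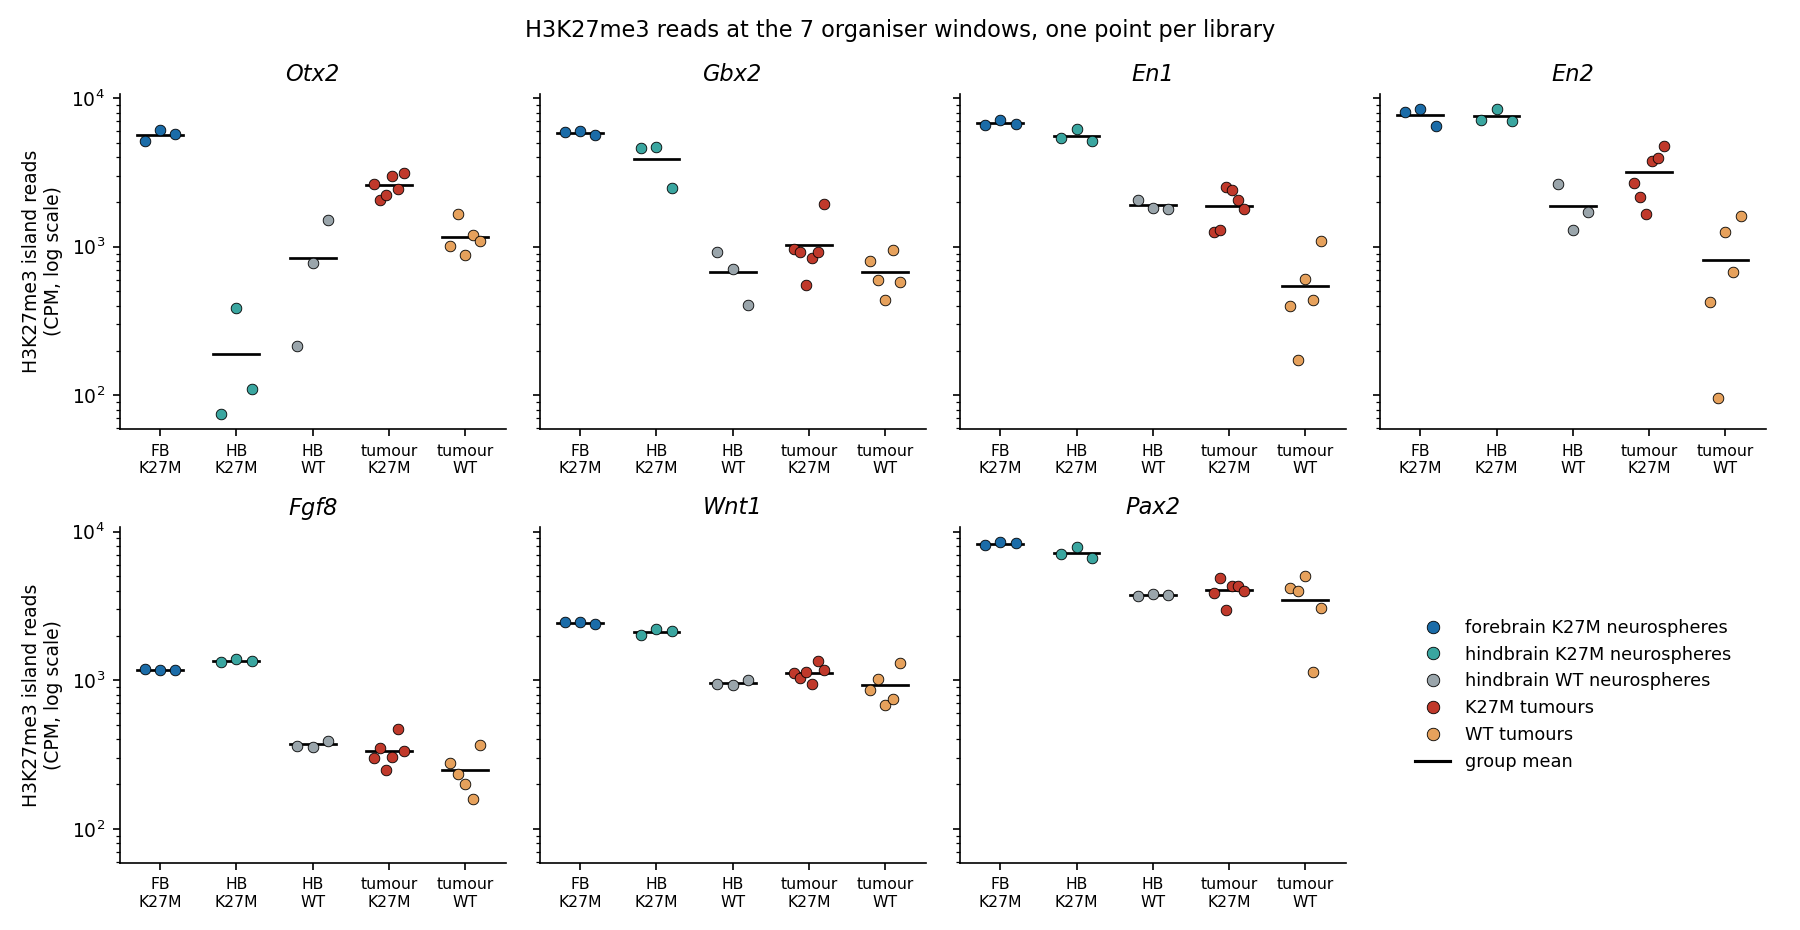
H3K27me3 island reads (CPM, log scale) at each organiser window, with 1 point per library and a bar at the group mean, for forebrain (FB) and hindbrain (HB) neurospheres and tumours. Otx2 stood at 5658 CPM on average in forebrain and 191.1 CPM in hindbrain K27M neurospheres, while the other 6 windows were high in both and lower in the remaining groups.

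Otx2, which specifies forebrain and midbrain, had the lowest H3K27me3 level of the 7 windows in hindbrain K27M cells. The 3 forebrain K27M libraries held 5109, 6096 and 5770 CPM at the Otx2 window. The hindbrain K27M libraries held 74.9, 387.5 and 110.8 CPM, so every forebrain library lay far above every hindbrain one. The hindbrain WT libraries were spread widely, at 216.2, 778.5 and 1518 CPM, and the last of these is the male library; the part of sex in this was not tested. K27M tumours held 2053 to 3158 CPM with a median of 2544, and WT tumours 877.1 to 1653 CPM with a median of 1092. In order of mean, forebrain K27M neurospheres were followed by K27M tumours, WT tumours, hindbrain WT and hindbrain K27M neurospheres, and only the last 3 had ranges that overlapped their neighbour's. The fitted difference between forebrain and hindbrain K27M was 4.96 on the log2 scale, and it was 6.03 without NSH-B, the hindbrain library with the most Otx2 reads. At the other windows that difference was 0.65 (Gbx2), 0.39 (En1), 0.11 (En2), -0.11 (Fgf8), 0.29 (Wnt1) and 0.30 (Pax2). At 5 windows every forebrain library lay above every hindbrain K27M library, as did 25.7% of 3362 regions. This count is a description. Islands covered 43.2, 46.6 and 47.0 kb of the 48 kb window in forebrain, against 8.4, 28.6 and 13.4 kb in hindbrain K27M and 29.8, 42.4 and 46.2 kb in hindbrain WT libraries. Where the mark was present in hindbrain K27M it was also thin, at 10.2 ± 2.88 CPM per kb of island (SD, n = 3) against 124.0 ± 6.36 (SD, n = 3) in forebrain.

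**Figure D2:**
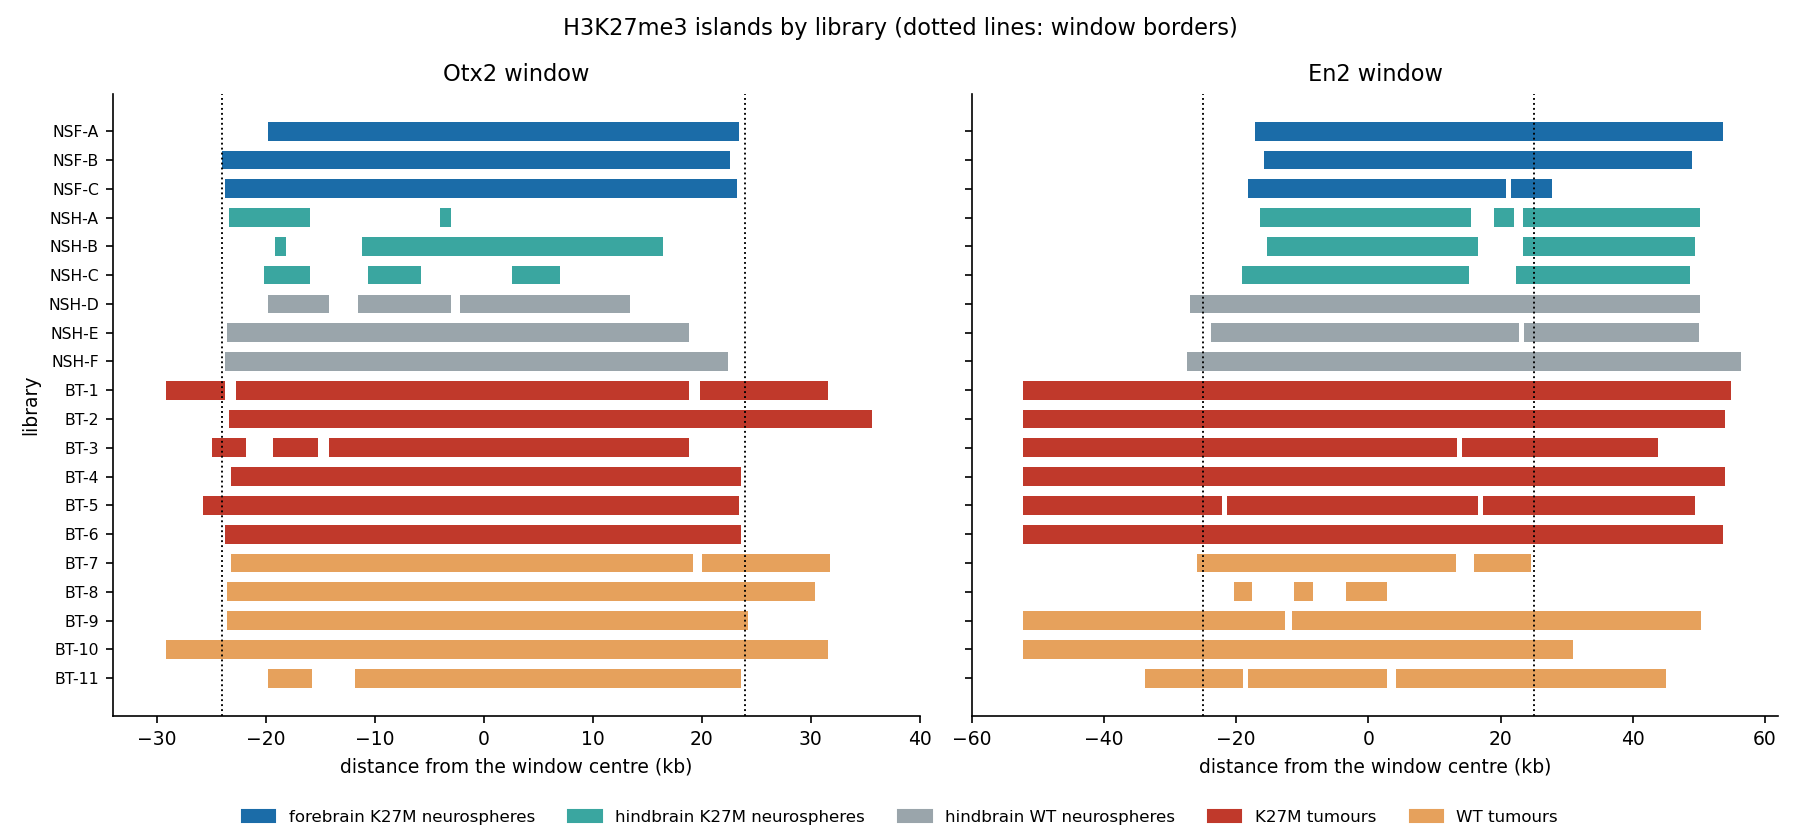
H3K27me3 islands over the Otx2 and En2 windows in each of the 20 libraries, drawn by distance from the window centre in kb, with dotted lines at the window borders. At Otx2 forebrain libraries had 1 island nearly as wide as the window and hindbrain K27M libraries 2 or 3 that covered 8.4 to 28.6 kb together. At En2 all 6 K27M tumours had islands that ran past both borders. An island longer than the En2 window also covered all of it in the WT tumour BT-10 (83.2 kb) and the hindbrain WT libraries NSH-D (77.2 kb) and NSH-F (83.8 kb). In the WT tumour BT-9, 2 islands of 101.6 kb together covered 49.0 kb of that window.

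Gbx2, the hindbrain counterpart of Otx2, was marked in both brain regions. Forebrain K27M libraries held 5910, 5978 and 5606 CPM and hindbrain K27M libraries 4633, 4661 and 2477 CPM at its window. Hindbrain WT libraries held 928.6, 705.1 and 403.5 CPM, below every K27M culture. In K27M tumours the level ran from 554.7 to 1938 CPM with a median of 919.4, and in WT tumours from 435.1 to 955.8 CPM with a median of 596.2, so the tumour genotypes overlapped. The highest K27M tumour was BT-6, and the other 5 stood at 969.8 CPM or less. The length under islands hardly set the cultures apart, at 31.4 to 31.8 kb in hindbrain K27M and 32 kb in each hindbrain WT library. The density did, with 112.1 ± 33.9 CPM per kb of island in K27M hindbrain and 11.6 ± 1.03 in WT hindbrain (SD, n = 3 each). In unscaled reads the mean density at Gbx2 was 323.4 per kb in K27M and 54.2 in WT hindbrain. Over all islands it was also higher in hindbrain K27M libraries, at 74.9 to 81.1 against 44.4 to 47.6 in WT.

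En1 and En2, the Engrailed homeodomain factors of the mid-hindbrain territory, had the largest fitted folds between the tumour genotypes. At En1 the libraries held 6642, 7161 and 6726 CPM in forebrain K27M, 5373, 6151 and 5159 CPM in hindbrain K27M and 2077, 1829 and 1804 CPM in hindbrain WT neurospheres. K27M tumours held 1253 to 2518 CPM (median 1930) and WT tumours 174.3 to 1089 CPM (median 438.4), with no overlap. At En2 the cultures held 8039, 8441 and 6463 CPM in forebrain K27M, 7123, 8481 and 6986 CPM in hindbrain K27M and 2650, 1300 and 1705 CPM in hindbrain WT. K27M tumours held 1673 to 4777 CPM at En2 (median 3249) and WT tumours 95.7 to 1614 CPM (median 675.9), again with no overlap, though the lowest K27M tumour, BT-3, and the highest WT tumour, BT-11, were close. In the WT tumour BT-8 islands covered 11.8 kb of the 50 kb En2 window and 19.6 kb of the 45 kb En1 window, while the other WT tumours had at least 46.8 and 38.8 kb. Whole islands that overlapped En2 measured 103.4 ± 4.76 kb in the 6 K27M tumours and 64.2 ± 35.1 kb (SD) in the 5 WT tumours. The genotypes overlapped in this length. WT tumours ran from 11.8 kb in BT-8 to 101.6 kb in BT-9, and K27M tumours from 95.2 to 107.0 kb. Islands there reach beyond the window toward neighbouring genes, which in RefSeq are Insig1 and Cnpy1.

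The secreted signals Fgf8 and Wnt1 kept K27M and WT libraries apart in hindbrain cultures and overlapped between genotypes in tumours. At Fgf8 forebrain K27M libraries held 1194, 1167 and 1173 CPM, hindbrain K27M libraries 1332, 1394 and 1339 CPM and hindbrain WT libraries 363.7, 356.5 and 391.3 CPM. Fgf8 was the only window with a higher mean in hindbrain than in forebrain K27M cultures. K27M tumours held 250.7 to 472.1 CPM at Fgf8 (median 319.5) and WT tumours 158.3 to 366.3 CPM (median 232.3). At Wnt1 the libraries held 2470, 2453 and 2376 CPM in forebrain K27M, 2017, 2198 and 2157 CPM in hindbrain K27M and 938.0, 932.2 and 997.6 CPM in hindbrain WT. K27M tumours held 939.3 to 1344 CPM at Wnt1 (median 1128) and WT tumours 677.6 to 1304 CPM (median 863.6), which overlapped. Islands covered less of the Fgf8 window in hindbrain K27M, 12.2, 11.2 and 13.8 kb, than in hindbrain WT, 17.8, 17.6 and 21.0 kb, although they held more reads.

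Pax2, the paired-domain factor that acts early in organiser formation, showed that contrast of length and reads most plainly. Hindbrain K27M libraries held 7035, 7847 and 6642 CPM on islands that covered 47.0, 45.8 and 37.0 kb of the 110 kb window. Hindbrain WT libraries held 3715, 3829 and 3765 CPM on 107.6, 104.4 and 107.8 kb. Reads in K27M hindbrain cells were therefore higher on shorter islands, at 121.3 ± 19.5 CPM per kb (SD, n = 3) against 26.998 ± 0.822 (SD, n = 3) in WT. In unscaled reads the mean density at Pax2 was 346.7 per kb in K27M and 126.2 in WT hindbrain. Over all islands it was 74.9 to 81.1 in hindbrain K27M and 44.4 to 47.6 in hindbrain WT libraries. Forebrain K27M libraries held 8127, 8461 and 8337 CPM on 56.2, 57.8 and 50.8 kb. Tumours of both genotypes had islands over 94.4 to 110.0 kb, with 2963 to 4841 CPM in K27M and 1144 to 5013 CPM in WT tumours, so they overlapped. The lowest tumour was BT-10.

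Density per kb of island allows the windows to be set beside each other. In forebrain K27M cells the mean density was highest at En1, 172.3 ± 4.26 CPM per kb (SD, n = 3), and lowest at Wnt1, 70.8 ± 4.72 (SD, n = 3). In K27M tumours it was highest at Otx2, 52.5 ± 12 (SD, n = 6), followed by En1 at 39.2 ± 12.3 (SD, n = 6), whose ranges overlapped, and it was lowest at Fgf8, 15.51 ± 3.67 (SD, n = 6). In WT tumours the windows lay between 11.7 ± 5.51 at En2 and 24.1 ± 6.81 at Wnt1 (SD, n = 5), and the ranges of these windows overlapped.

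K27M was compared with WT in hindbrain neurospheres to show what the mutant histone was associated with in cells of matched origin. By edgeR's quasi-likelihood test, all 6 windows tested had more H3K27me3 reads in K27M cells, where 25.9% of the 3334 regions tested rose and 28.4% fell. Gbx2 rose most, by 2.87 on the log2 scale (SE 0.39, edgeR adjusted p = 0.00126). En2 rose by 2.34 (SE 0.27), Fgf8 by 2.20 (SE 0.11), En1 by 1.88 (SE 0.13), Wnt1 by 1.48 (SE 0.10) and Pax2 by 1.26 (SE 0.12), and the largest edgeR adjusted p among these 6 was 0.00126. Each of the 6 was higher in all 3 K27M libraries than in any WT library, where 30.8% of regions tested did the same. At Otx2, given as a description, the groups overlapped and the log2 fold was -1.81 (SE 0.87). It was -2.76 without the K27M library NSH-B, -2.28 without the WT library NSH-D and -2.80 when reads were scaled to totals. The median log2 fold of the 7 windows was 1.88, against -0.11 over all regions tested. Scaling to totals without TMM factors moved the latter to -1.02, with 318 regions higher and 2129 lower in place of 862 and 946, and the 6 windows still rose, Pax2 by 0.34, Wnt1 by 0.57 and En1 by 0.97. The regions tested had an island in every library of both groups, so regions that lost their islands in K27M cells were left out. With no such filter, 804 of 10778 regions rose and 4523 fell, with a median of -1.72. The 6 windows were still called higher.

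In brainstem tumours Otx2, En1 and En2 had more H3K27me3 reads in K27M than in WT. These 3 of 7 windows rose by edgeR's test and none fell, where 7.14% of the 3069 regions tested rose and 4.66% fell. Otx2 rose by 1.27 on the log2 scale (SE 0.20, edgeR adjusted p = 0.00201), En1 by 1.90 (SE 0.41, adjusted p = 0.0117) and En2 by 2.05 (SE 0.57, adjusted p = 0.0339). In each of the 3 every K27M tumour lay above every WT tumour, as did 5.77% of regions tested. The log2 folds were 0.71 at Gbx2 (SE 0.31, adjusted p = 0.162), 0.55 at Fgf8 (SE 0.26, adjusted p = 0.198), 0.40 at Wnt1 (SE 0.22, adjusted p = 0.252) and 0.33 at Pax2 (SE 0.29, adjusted p = 0.490), all with overlapping groups. The median over all regions tested was -0.09, and -0.29 with totals, where 158 regions rose and 301 fell in place of 219 and 143 and the same 3 windows stayed higher. With labelled sex as a covariate the log2 folds were 1.43 at Otx2, 1.90 at En1 and 2.10 at En2, all still called, and Gbx2 joined them at 1.07 (adjusted p = 0.0268). The En2 call was the weakest: its adjusted p was 0.0505 to 0.0693 without any one of BT-1, BT-4, BT-5, BT-6, BT-7 or BT-10, and 0.146 when regions without an island in every tumour were tested too.

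**Figure D3:**
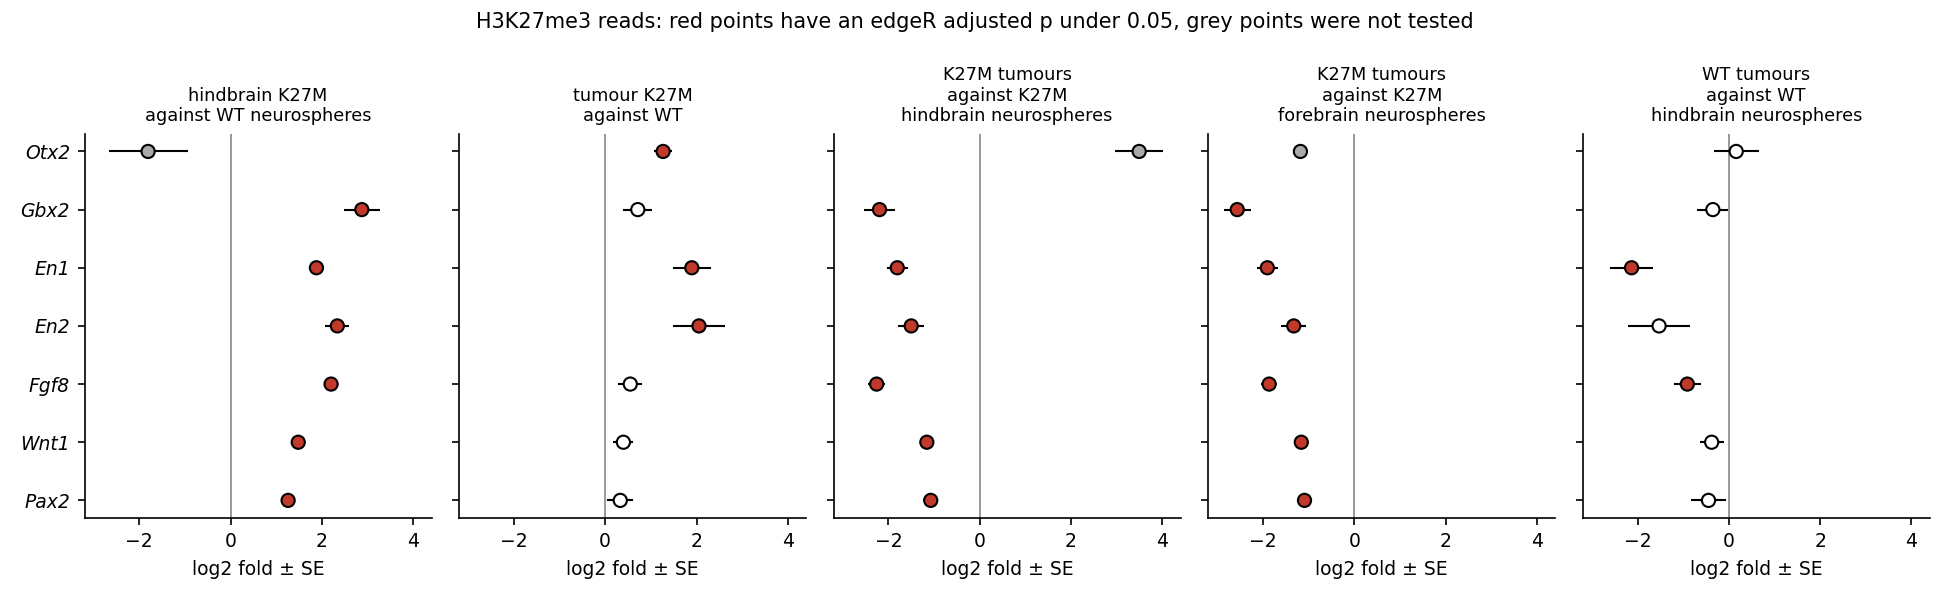
Log2 fold of H3K27me3 island reads with its SE for each window in 5 comparisons, first group minus second, with red points where the edgeR adjusted p was under 0.05 and grey points for Otx2 where no test was made. The genotype folds in tumours ran from 0.33 to 2.05 and in hindbrain neurospheres from -1.81 to 2.87.

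The effect of K27M differed between tumours and hindbrain cultures at 3 of the 6 windows tested. This was tested as an interaction over the 17 libraries with edgeR, a test added after the data were seen, in which 24.3% of 1626 regions passed. At Otx2, as a description, the effect was higher in tumours by 3.06 on the log2 scale (SE 0.72). At Gbx2 the effect was lower in tumours, with a difference of -2.14 (SE 0.52, edgeR adjusted p = 0.00831). The same held at Fgf8, with -1.63 (SE 0.35, adjusted p = 0.00403), and at Wnt1, with -1.07 (SE 0.28, adjusted p = 0.0128). The differences were -0.92 at Pax2 (SE 0.43, adjusted p = 0.128), -0.25 at En2 (SE 0.80, adjusted p = 0.851) and 0.05 at En1 (SE 0.55, adjusted p = 0.960). The tumours also differ from the cultures in Cre driver, PDGFRα and Trp53 alleles and growth in the brain, which cannot be told apart here. Pax2 passed without BT-10, the tumour with the lowest Pax2 level (-1.13, adjusted p = 0.00428). Scaling to totals moved the median over all regions from 0.13 to 0.76, with 522 regions higher and 29 lower in place of 256 and 139, and Wnt1 to -0.42 (adjusted p = 0.201), and left Gbx2 and Fgf8 called.

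Within one genotype the tumours were set beside each kind of culture, and these comparisons share tumour libraries. Against hindbrain K27M neurospheres, the fitted difference at Otx2 was 3.49 on the log2 scale (SE 0.53), as a description. The other 6 windows had fewer reads in K27M tumours by edgeR's test, from -1.07 at Pax2 to -2.26 at Fgf8, where 36.5% of 1962 regions tested rose and 29.6% fell. Against forebrain K27M neurospheres those 6 windows were also lower in K27M tumours, from -1.09 at Pax2 to -2.56 at Gbx2, where 35.5% of 1767 regions rose and 27.7% fell. Otx2 stood at -1.18 (SE 0.15), again as a description. The scaling mattered for both: with totals in place of TMM factors the median over all regions went from 0.22 to 1.25 and from 0.21 to 1.15, with 1222 regions higher and 253 lower against hindbrain and 1092 and 213 against forebrain. En2, Wnt1 and Pax2 then lost their calls in both comparisons and Otx2 against forebrain moved to -0.24, while Gbx2, En1 and Fgf8 stayed lower in both. Against hindbrain WT neurospheres, WT tumours were lower at En1, by -2.13 (SE 0.47, edgeR adjusted p = 0.00953), and at Fgf8, by -0.91 (SE 0.30, adjusted p = 0.0453), where 16.5% of 3331 regions rose and 13.8% fell (1066 regions higher and 262 lower with totals, in place of 551 and 460). The Fgf8 call was lost when any one of 7 libraries was left out: BT-7, BT-8, BT-9, BT-10, NSH-D, NSH-E or NSH-F, with adjusted p between 0.0646 and 0.112. It was also lost with totals (-0.49, adjusted p = 0.192), with no filter on islands (0.143) and with sex as covariate (0.0591). Otx2 did not separate these groups, at 0.16 (SE 0.49, adjusted p = 0.816).

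The length of window under H3K27me3 islands gave a further view of the tumours. At Fgf8, K27M tumours had 20.6 ± 0.480 kb (SD, n = 6) and WT tumours 16.8 ± 1.96 kb (SD, n = 5) of the 22 kb window under islands. The groups did not overlap, K27M being higher, as in 0.522% of 33168 regions with an island in at least 2 tumours. A region can do so only with an island in all 6 K27M tumours. Each window had one in every tumour, so this share is not one of like regions. At Fgf8 the two-sided exact permutation p was 0.00216, the smallest that 6 against 5 allows, and 0.438 after Benjamini-Hochberg adjustment over all regions. En1, En2 and Wnt1 also had unadjusted permutation p under 0.05 (0.0411, 0.0303 and 0.0152), where 6.44% of regions did. Without BT-8 the differences at En1 and En2 went from 6.56 and 8.52 kb to 2.2 and 1.2 kb, with unadjusted permutation p of 0.138 and 0.0905. Only 2 windows had such a p when BT-1, BT-2, BT-3, BT-4, BT-6, BT-7, BT-8 or BT-11 was left out. After adjustment 0% of regions passed, against 2137 regions at an unadjusted p under 0.05, and Fisher's exact test of island calls passed none of 11287 regions, against 676 unadjusted. At Otx2 the lengths were 45.7 ± 3.15 kb (SD, n = 6) and 45.8 ± 3.63 kb (SD, n = 5) (exact permutation p = 0.961), while its reads differed as given above.

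The active marks split the windows in tumours. Otx2 had no H3K27ac peak in any of 11 tumours and no H3K4me3 peak in any of 5, and was the only window with neither. Fgf8 had no H3K27ac peak in 11 tumours but an H3K4me3 peak in each of the 5, which covered 1.06 to 1.34 kb. Gbx2, En1, En2, Wnt1 and Pax2 likewise had H3K4me3 in 5 of 5 tumours. At En1 it covered 10.4 kb in BT-2, 8.67 kb in BT-6, 9.41 kb in BT-7, 5.53 kb in BT-9 and 9.63 kb in BT-10, and at En2 7.09, 3.09, 8.51, 5.62 and 8.38 kb in the same order. At Gbx2, Wnt1 and Pax2 it covered 0.989 to 5.05 kb, less than at En1. No test of genotype was made for this mark, since 2 against 3 tumours cannot go below an exact p of 0.1. H3K27ac was called at Gbx2 in 9, at En1 in 9, at En2 in 9, at Wnt1 in 6 and at Pax2 in 2 of the 11 tumours. At Gbx2 the acetylation peaks were short, 0.284 to 1.37 kb where present, in both genotypes. At Pax2 H3K27ac was present in 0 of 6 K27M and in 2 of 5 WT tumours, BT-10 with 1.47 kb and BT-11 with 0.574 kb. At Wnt1 it was present in 5 of 6 K27M tumours and 1 of 5 WT tumours, of mean length 0.573 ± 0.403 kb (SD, n = 6) against 0.0536 ± 0.120 kb (SD, n = 5). The unadjusted exact permutation p was 0.0411 for that length (adjusted 0.773), where 3.90% of 58294 regions had one under 0.05, and Fisher's exact test of the calls gave 0.0801. No region passed either test after adjustment (2273 lengths and 362 of 14877 calls at an unadjusted p under 0.05). All Wnt1 H3K27ac peaks lay 13.3 to 17.1 kb from the window centre on the side of the neighbouring gene Ddn, so they cannot be assigned to Wnt1.

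**Figure D4:**
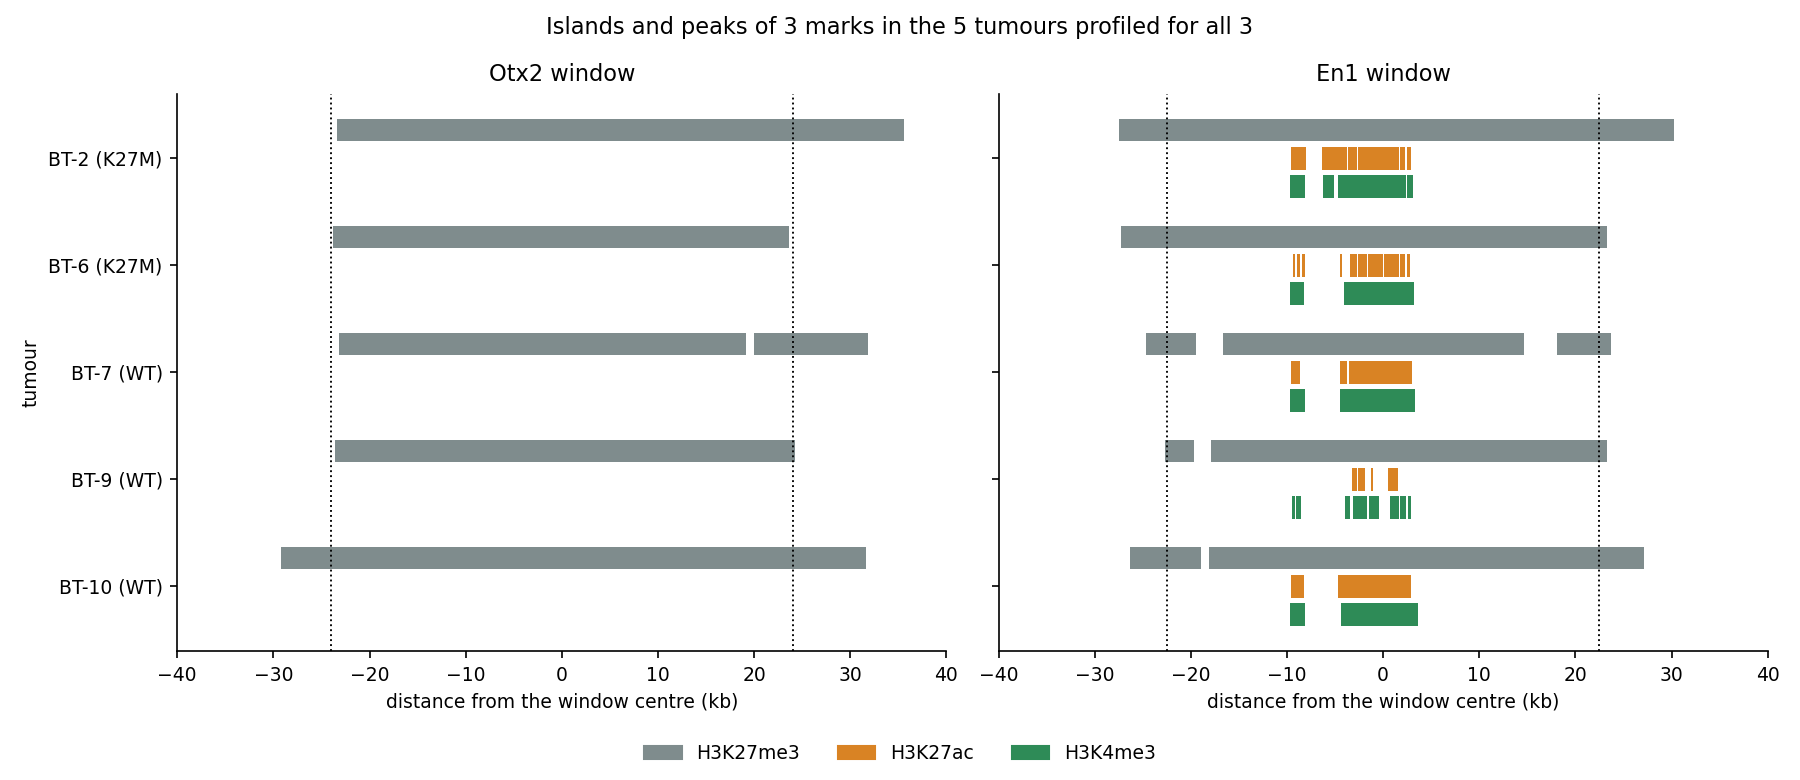
H3K27me3 islands and H3K27ac and H3K4me3 peaks over the Otx2 and En1 windows in the 5 tumours profiled for all 3 marks, by distance from the window centre in kb. At En1 both kinds of peak lay inside H3K27me3 islands in all 5 tumours, and at Otx2 there were islands and no peaks.

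Peaks in these windows lay almost wholly inside H3K27me3 islands of the same tumour. All H3K27ac bases of the windows were inside islands in 10 of 11 tumours, and 43.3% were in BT-8, whereas over whole lists 2.78% to 22.0% of H3K27ac bases were. All H3K4me3 bases of the windows were inside islands in 5 of 5 tumours, against 18.9% to 25.9% over whole lists. The windows were chosen with these data in view and each held an island in every library. Islands covered on average 85.0% (Gbx2) to 99.2% (En2) of a window in K27M tumours. In WT tumours they covered 76.5% (Fgf8) to 95.4% (Otx2). A peak placed anywhere in a window would thus mostly fall inside an island, and the whole lists are not a like background. The part of this coverage in the share was not tested. In BT-8 20.1% of the En1 and 71.1% of the En2 acetylated bases lay in islands. Co-occurrence in a list does not show that a single nucleosome carried both marks.

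The Engrailed windows allow acetylation and H3K27me3 to be set side by side in each tumour. At En2 the acetylated length was 2.41 ± 2.20 kb in the 6 K27M tumours and 7.17 ± 2.12 kb (SD) in the 5 WT tumours (two-sided exact permutation p = 0.00649, 0.773 after adjustment over all regions). The WT tumours held 9.29, 5.90, 5.77, 9.66 and 5.26 kb in order of tumour number from BT-7 to BT-11. The K27M tumours BT-1 to BT-6 held 2.98, 5.48, 4.03, 1.95, 0 and 0 kb, so all but BT-2 lay below every WT tumour. The authors' highest −log10 q at En2 was 198.5 in BT-10, above 97.1% of the peaks of that list, and 9.19 in BT-4, above 47.0%. The 2 K27M tumours with no En2 acetylation, BT-5 and BT-6, were those with the most En2 H3K27me3, 3938 and 4777 CPM, and the WT tumours BT-7 and BT-10, with the longest acetylated stretch, held 427.6 and 675.9 CPM. BT-8 had the least En2 H3K27me3, 95.7 CPM, and 5.90 kb of H3K27ac, close to the 5.77 kb of BT-9 at 1256 CPM. At En1 the means were 3.95 ± 4.11 kb and 5.84 ± 4.34 kb (SD, 6 and 5 tumours; exact permutation p = 0.463, adjusted 0.916). Within each genotype it ran from 0 kb to over 9 kb at En1, with BT-3 and BT-11 at 0 kb and BT-2 at 10.3 kb, and the genotypes overlapped. BT-3 had the most En1 H3K27me3 of the K27M tumours and BT-11 the most of the WT tumours.

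**Figure D5:**
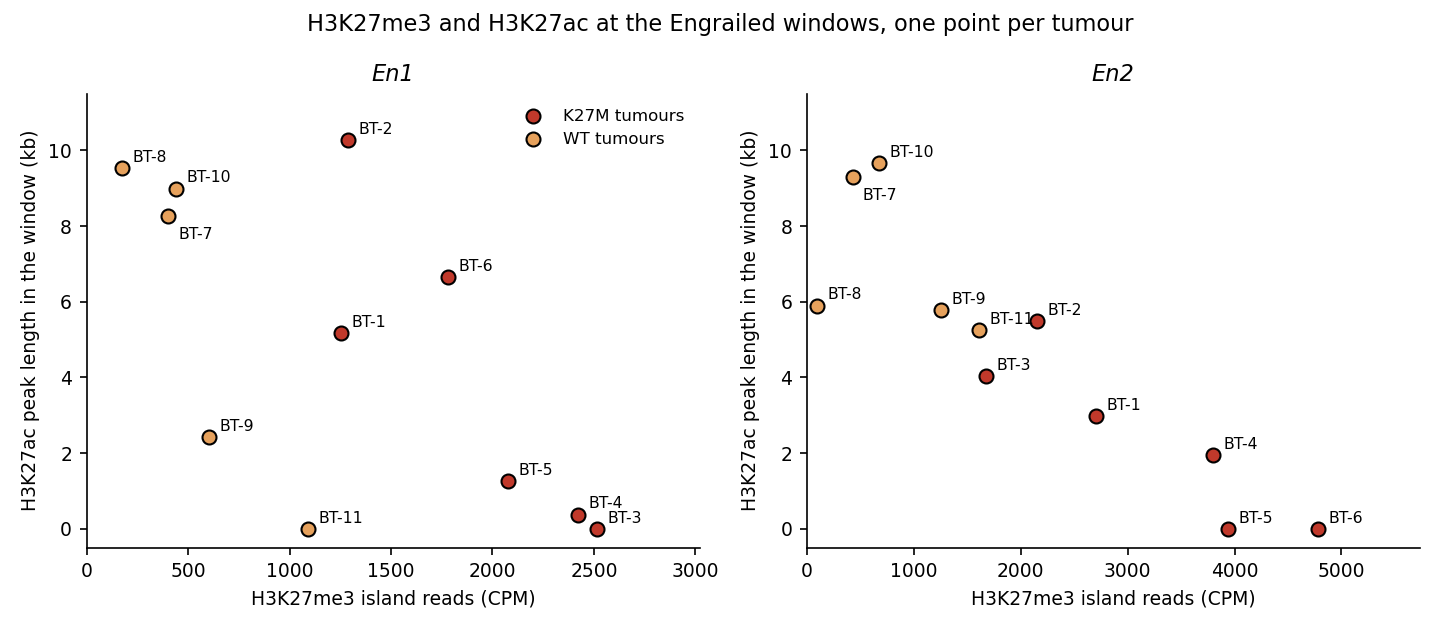
H3K27ac peak length in the window (kb) against H3K27me3 island reads (CPM) at En1 and En2, with 1 point for each of the 11 tumours. At En2 the WT tumours lie at 5.26 kb or more of H3K27ac and 1614 CPM or less of H3K27me3, and at En1 acetylation ranges widely in both genotypes.

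The 6 windows other than Otx2 varied together over the 20 libraries. Pearson's r of log2(CPM + 1) ran from 0.60 (En2 with Pax2) to 0.95 (Fgf8 with Wnt1) among them, and from -0.19 to 0.01 between Otx2 and each of them, as a description of libraries that share groups and scaling. The windows were chosen by Otx2 reads in forebrain against hindbrain K27M cultures, and those libraries are among the 20. The low r of Otx2 is thus not independent of that choice. No r between pairs of other regions is given as a background. Among 7812 other regions with an island in at least 10 libraries, the pattern most like that of Otx2 was at chromosome 9, 69557401 to 69835200 (r = 0.91), then at chromosome 8, 94856001 to 94929800 (r = 0.90). For Gbx2 they were chromosome 9, 91227401 to 91366600 (r = 0.93), and chromosome 9, 21044801 to 21059800 (r = 0.92). For En1 they were chromosome 6, 83589401 to 83719000, and chromosome 2, 147813801 to 147930800 (r = 0.97 for both). En2 was closest to chromosome 5, 67981001 to 68007400 (r = 0.95), and chromosome 13, 40762001 to 40856000 (r = 0.94). For Fgf8 the regions were chromosome 4, 133800601 to 133821400 (r = 0.97), and chromosome 9, 118352001 to 118411000 (r = 0.96). Wnt1 was followed most closely by chromosome 15, 99047201 to 99076000, and chromosome 13, 48743201 to 48889200 (r = 0.96 for both). Pax2 was closest to chromosome 3, 99028201 to 99108000 (r = 0.90), and chromosome 19, 54115001 to 54133000 (r = 0.89).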

How the data were processed

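Each of the 20 H3K27me3 files lists SICER islands, per the file headers with windows of 200 bp joined over gaps of up to 600 bp, and gives the deposited read count of each island. The 11 H3K27ac and 5 H3K4me3 files are peak lists in which the score, the fold enrichment ratio, the −log10 p-value and the −log10 q-value of a peak are the authors' own; peaks were filtered on −log10 q in an alternative. Programs in the submitters' processing notes, given without roles, are SICER 1.1, MACS2, BWA 0.7.12, bedtools 2.25.0, SAMtools, Picard and R 2.14.0, with build mm9. Per the labels' protocols, Drosophila S2 chromatin was added to samples, and no factor from it was used here. The 23 input samples were not analysed. Some groups hold both sexes and so more than 1 animal, but the labels do not say that every sample came from its own animal, so p-values measure the spread between samples, part of which may be technical.

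The members, gene lists and tests were chosen with earlier results of these data known. All 7 windows are named, with the 2 regions most like each. Lists of other organiser genes and of cell type markers could not be applied, since they need mm9 gene positions, so the labelled tissues were not checked against markers. For each comparison, reads of whole islands were summed over each window and over every other region, merged where islands shared 1 bp. Features with an island in every library entered edgeR 4.0.16 under R 4.3.3, with the quasi-likelihood test, TMM scaling and Benjamini-Hochberg adjustment over all of them at 0.05. SE was derived from the F statistic. Peak and island lengths were compared by exact permutation of group labels (two-sided, absolute mean difference) and calls by Fisher's exact test. DESeq2 1.42.0 was an alternative. Code was tested on simulated data. Python 3.11.15 was used with pandas 2.3.3, SciPy 1.17.1, numpy 2.4.6 and matplotlib 3.10.9. Neurosphere groups share experiment numbers in the labels. Same-numbered libraries of forebrain and hindbrain K27M had deviations that correlated at 0.21, 0.24 and 0.21. For the hindbrain genotypes the values were 0.10, -0.03 and 0.02.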

Additional observations from a re-analysis of the deposited data

Results flagged for a closer look

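In 37 sets of tumour values, 6 had 1 tumour far from the rest of its group. Chance flags about 1 in 20 sets of independent, normally distributed values. Covered lengths are bounded by 0 and the window length, and BT-8 was flagged at both En1 and En2. That rate therefore gives no measure of an excess here. BT-6 stood at 1938 CPM of H3K27me3 at Gbx2, and the other K27M tumours at 554.7 to 969.8 CPM. BT-8 had 19.6 kb of En1 and 11.8 kb of En2 under H3K27me3 islands, and the other WT tumours at least 38.8 and 46.8 kb. In the Otx2 window, BT-3 and BT-11 each had 39.4 kb under islands, against 46.0 to 47.4 kb in the other K27M and 46.4 to 48.0 kb in the other WT tumours. BT-10 was the only WT tumour with H3K27ac in the Wnt1 window, 0.268 kb.

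The K27M effect on H3K27me3 reads differed between tumours and hindbrain neurospheres by -2.14 at Gbx2, -1.63 at Fgf8 and -1.07 at Wnt1 on the log2 scale, by edgeR's interaction test (adjusted p = 0.00831, 0.00403 and 0.0128).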

How the results depend on the processing

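Of 914 values of single windows under alternatives, 868 were counted as unchanged. Of the rest, 25 lost a call, 5 gained one, 2 untested values moved beyond the spread and 14 changed sign. Uncalled length differences that lay within the spread counted as unchanged even with another sign. So did forebrain against hindbrain folds that moved by less than the spread. These counts, and those of windows called, include Otx2 where it is given only as a description. Scaling to totals called 4 windows for K27M tumours against hindbrain K27M neurospheres, 3 against forebrain K27M neurospheres and 1 for WT tumours against WT hindbrain neurospheres, against 7, 7 and 2. For the last comparison, 1 window was also called with no filter on islands and with sex as covariate, and 1 to 2 when a library was left out. Its folds at Gbx2 and Wnt1 turned to 0.11 and 0.04 with totals, and Otx2 ranged from -0.38 to 0.86 when a library was left out. The forebrain against hindbrain fold at Otx2 ranged from 4.57 to 6.03. The difference between systems turned at En2 to 0.41 with totals and ranged from -0.59 to 0.17 there when a library was left out. At En1 it was -0.03 with reads apportioned to the window and ranged from -0.22 to 0.47. The cause was not tested.

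The replicate block left 6 windows called in hindbrain neurospheres, with Otx2 at -1.73, and changed no call there. Between forebrain and hindbrain K27M it gave a log2 fold of 5.32 at Otx2, as a description. Over all regions, DESeq2 called 336 higher and 294 lower in K27M tumours against 219 and 143 with edgeR, and with no filter edgeR called 155 and 48. In hindbrain neurospheres the counts were 862 and 946, and 804 and 4523 with no filter. Depth limits thin islands: an island missing from a list is not proof that the mark was absent.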
